A study of Mus musculus with 2 samples.

Results

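Imprinted genes carry a mark from the germ line that decides which parental copy is read. The 8 genes described here, Mest, Peg3, Peg10, Sgce, Nnat, Snrpn, Impact and Zrsr1, are known in the mouse as genes read from the paternal copy. They were taken by symbol from the 27998 genes of the table, and all 8 were found. The counts are per gene and do not tell parental copies apart, so the values below are totals over both copies.

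At a paternally expressed locus, DNA methylation laid down in the egg typically silences the maternal copy, and the unmethylated paternal copy is transcribed. After fertilisation the mark is kept by factors such as ZFP57, which binds the methylated hexamer TGCCGC and recruits TRIM28, and by the maintenance methyltransferase DNMT1. Embryonic stem cells are known for variable retention of these marks in culture, in particular in medium with kinase inhibitors.

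The cells were E14 mouse embryonic stem cells, a male line whose strain is labelled C57BL/6, grown without feeder cells on gelatin in 2i/LIF medium, which holds inhibitors of MEK and GSK3 together with leukaemia inhibitory factor. One culture was exposed for 24 h to Idoxuridine, an iodinated analogue of thymidine that enters newly made DNA, and the other for 24 h to its solvent DMSO. The treatment label gives 10 µM Idoxuridine, whereas a protocol field gives 10 mM, and the conflict could not be settled from the files. Each treatment had 1 single-cell RNA library, so no test between treatments was possible, and every interval below covers counting error and not the spread between cultures.

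The Idoxuridine library held 742 cells with 30454626 UMIs, and the DMSO library held 811 cells with 40818344 UMIs (unique molecular identifiers, each standing for 1 captured 3′ RNA end). The median was 37425 UMIs in Idoxuridine cells and 44502 in DMSO cells, and 2 barcodes occurred in both libraries. Without their cells the counts of called members and of correlated pairs below were the same. The cells matched their label: Pou5f1, which defines pluripotent cells, stood at 1620 counts per 1e+06 UMIs (CPM) after Idoxuridine and 2072 CPM in DMSO, and the blood markers Ptprc and Hbb-bs had 0 UMIs in both. The 12 embryonic stem cell markers summed to 4981 CPM after Idoxuridine and 6828 CPM in DMSO, and 5 of them were called lower and 1 higher by the size rule given below. The 9 trophoblast markers summed to 265 CPM after Idoxuridine and 154 CPM in DMSO, and the 8 fibroblast markers to 12.4 CPM and 1.40 CPM, with Postn at 0 in both libraries. The 4 germ cell markers summed to 107 CPM after Idoxuridine and 17.98 CPM in DMSO, the 8 primitive endoderm markers to 24.4 and 3.06 CPM, and the 5 mesoderm markers to 19.4 and 3.63 CPM. Nuclear-retained RNAs, 6 genes led by Malat1, summed to 5412 CPM after Idoxuridine and 3306 CPM in DMSO. The part of these differences in the levels of the imprinted genes was not tested.

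The genes lie at 7 loci. Peg10, a gene derived from a retrotransposon and needed for the placenta, occupies chr6:4747306-4760517 on the plus strand of GRCm38. Its neighbour Sgce, which encodes the membrane protein epsilon-sarcoglycan, occupies chr6:4674350-4747207 on the minus strand, and the annotated starts of the pair are 99 bases apart. Mest, which encodes a protein of the alpha/beta hydrolase fold, is at chr6:30723547-30748465, where Copg2 overlaps it on the other strand. Peg3, a zinc finger protein gene, is at chr7:6703892-6730431, and Snrpn, which encodes the spliceosome protein SmN, is at chr7:59982495-60140219. Snurf and Gm38393 share the Snrpn locus and strand in the annotation. Snurf had 0 UMIs in both libraries. At a limit of 3 counts per library, this allows UMIs assigned to Snurf up to 0.0985 CPM after Idoxuridine and 0.0735 CPM in DMSO. Between Snurf and Snrpn, the counted UMIs were thus those of Snrpn. Reads that fit both genes could not be examined in these counts. Nnat, which encodes the small membrane protein neuronatin, is at chr2:157560078-157562522 within the span of Blcap on the other strand. Zrsr1, a retrogene related to the splicing factor gene Zrsr2, is at chr11:22972005-22976496 within the span of Commd1 on the other strand. Impact, which encodes an inhibitor of the kinase GCN2, is on a chromosome with no other member. All 8 are annotated as protein coding.

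Promoter sequence was available from RefSeq (GRCm38.p6, 250 bases before to 50 bases after a start) for 5 of the 8 genes; Peg10, Sgce and Impact had no entry. Windows of 4 of these 5 genes are printed below, without that of Zrsr1, and for genes with several listed starts the window with the most CpG dinucleotides is shown. Capitals mark the ZFP57 hexamer TGCCGC or its reverse complement GCGGCA, searched on both strands. They are printed in the direction of transcription, from chr6:30737800-30738099 (plus) for Mest, chr2:157559828-157560127 (plus) for Nnat, chr7:60005150-60005449 (minus) for Snrpn and chr7:6730370-6730669 (minus) for Peg3.
Mest: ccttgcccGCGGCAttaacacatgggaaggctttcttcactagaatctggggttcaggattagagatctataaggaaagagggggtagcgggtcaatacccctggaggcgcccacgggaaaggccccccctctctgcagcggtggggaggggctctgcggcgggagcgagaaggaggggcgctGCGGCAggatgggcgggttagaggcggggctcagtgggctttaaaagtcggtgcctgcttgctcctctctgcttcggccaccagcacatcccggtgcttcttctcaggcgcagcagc
Nnat: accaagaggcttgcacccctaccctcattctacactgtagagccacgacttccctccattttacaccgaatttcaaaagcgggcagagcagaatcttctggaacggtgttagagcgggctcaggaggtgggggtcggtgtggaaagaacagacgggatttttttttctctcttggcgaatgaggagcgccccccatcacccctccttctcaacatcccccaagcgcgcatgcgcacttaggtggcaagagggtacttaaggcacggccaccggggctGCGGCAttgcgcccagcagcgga
Snrpn: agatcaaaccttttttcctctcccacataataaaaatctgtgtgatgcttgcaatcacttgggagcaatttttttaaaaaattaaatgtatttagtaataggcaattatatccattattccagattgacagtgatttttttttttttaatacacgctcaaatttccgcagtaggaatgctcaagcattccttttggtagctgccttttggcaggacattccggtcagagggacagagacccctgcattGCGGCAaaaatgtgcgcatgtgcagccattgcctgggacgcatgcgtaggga
Peg3: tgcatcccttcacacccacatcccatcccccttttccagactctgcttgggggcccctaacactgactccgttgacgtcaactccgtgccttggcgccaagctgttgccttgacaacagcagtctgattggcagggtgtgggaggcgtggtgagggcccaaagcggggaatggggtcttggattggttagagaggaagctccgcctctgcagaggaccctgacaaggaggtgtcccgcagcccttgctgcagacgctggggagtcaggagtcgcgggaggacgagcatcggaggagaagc
The Mest window held 17 CpGs and the hexamer at 2 places, the Nnat window 17 CpGs and 1 hexamer, and the Snrpn window 7 CpGs and 1 hexamer. The Peg3 window held 13 CpGs and the Zrsr1 window 10 CpGs, both with 0 hexamers. Over 27025 genes, 12.2% of windows chosen in the same way held the hexamer and the median was 8 CpGs. Methylation was not measured in these libraries.

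In level, Nnat, Peg10 and Peg3 were more abundant in the Idoxuridine library by 1.03 to 1.56 on the log2 scale, Mest and Zrsr1 were higher by 0.41 and 0.44, and Snrpn was the member with the clearly lower value. A gene was called higher or lower when its level differed by at least 0.5 log2 and the Poisson intervals of the libraries did not overlap. By that rule 3 of 8 members were called higher, against 18.8% of the 10380 genes with at least 200 UMIs, and 0 of 8 were called lower, against 4.2% of those genes. The median log2 ratio of Idoxuridine over DMSO was 0.42 over the members and 0.09 over all 10380 genes. TMM scaling moved the median of all genes by -0.21 and median-of-ratios scaling moved it by -0.25, so a ratio above 0 but smaller than these shifts turns negative under them, while a negative ratio stays negative there.

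**Figure D1:**
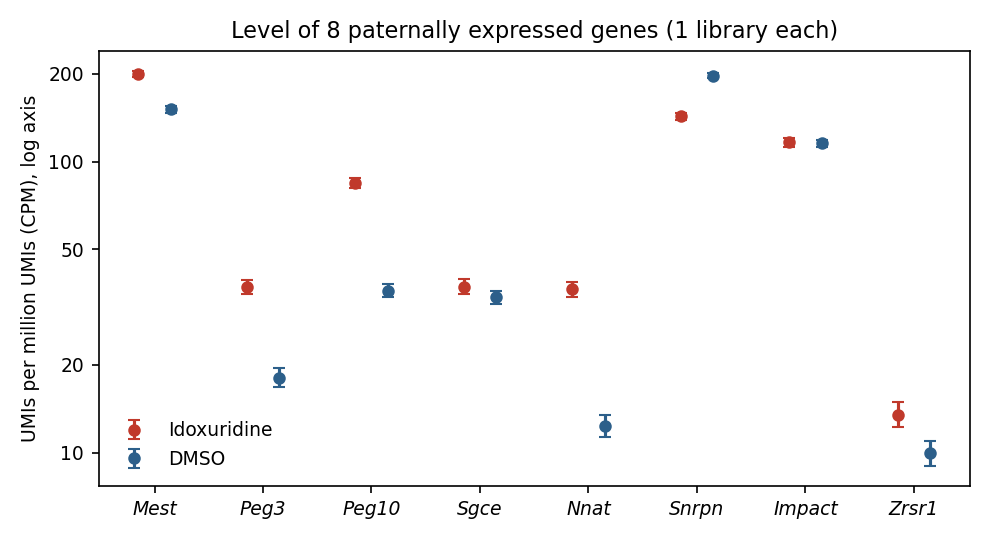
Level of each gene in the Idoxuridine library (left point of each pair) and the DMSO library (right point), as CPM on a log axis, with exact Poisson 95% intervals for counting error. Nnat, Peg10 and Peg3 have the widest gaps, and Snrpn is the gene whose Idoxuridine point lies well below its DMSO point.

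Nnat had 36.4 CPM (95% interval 34.3 to 38.6) in Idoxuridine cells and 12.4 CPM (11.3 to 13.5) in DMSO cells. The log2 ratio of 1.56 (1.40 to 1.71) was the largest among the members and was 1.35 under TMM and 1.31 under median-of-ratios scaling. Nnat is known for its expression in developing brain and endocrine cells. The 6 neural markers summed to 209 CPM after Idoxuridine and 133 CPM in DMSO, and both with at least 200 UMIs were called higher. They were the neuronal tubulin gene Tubb3, at 191 and 127 CPM, and Nes, an intermediate filament gene of neural progenitors, at 13.6 and 4.61 CPM, while Sox1 and Pax6, which define early neural cells, were at 0.46 and 0.427 CPM after Idoxuridine and at 0.857 and 0.122 CPM in DMSO. Across cells, r of Nnat with the neural list was 0.16 after Idoxuridine and -0.05 in DMSO, and the part of these markers in the level of Nnat was not tested.

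Peg10 reached 84.3 CPM (81.1 to 87.6) in Idoxuridine cells and 36.0 CPM (34.2 to 37.9) in DMSO cells, a log2 ratio of 1.23 (1.13 to 1.32). Sgce, whose annotated start lies beside that of Peg10, had 37.1 CPM (35.0 to 39.4) in Idoxuridine cells and 34.1 CPM (32.4 to 36.0) in DMSO cells, and these intervals overlapped. Its log2 ratio was 0.12 on the CPM scale and turned to -0.09 under TMM and -0.13 under median-of-ratios scaling. The neighbours at this promoter thus stood at 84.3 and 37.1 CPM after Idoxuridine, and at 36.0 and 34.1 CPM, with overlapping intervals, in DMSO.

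Peg3, known in the mouse for roles in growth, had 37.1 CPM (34.9 to 39.3) in Idoxuridine cells and 18.1 CPM (16.8 to 19.5) in DMSO cells, a log2 ratio of 1.03 (0.90 to 1.17). Mest was the most abundant member after Idoxuridine, with 200.3 CPM (195 to 205) there and 151 CPM (147 to 155) in DMSO. Its log2 ratio of 0.41 (0.36 to 0.46) lay below the size rule, and was 0.20 under TMM scaling. Zrsr1 was the least abundant member in both libraries, with 13.5 CPM in Idoxuridine cells and 9.95 CPM in DMSO cells.

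Snrpn had 143 CPM (139 to 147) in Idoxuridine cells and 197 CPM (193 to 202) in DMSO cells. Its log2 ratio of -0.47 (-0.52 to -0.41) fell just short of the size rule, and it was called lower under TMM (-0.68) and median-of-ratios scaling (-0.72). Only 4.96% of the 10380 genes had a lower log2 ratio on the CPM scale. Snrpb, which encodes the SmB protein that SmN resembles, stood at 753 CPM after Idoxuridine and 883 CPM in DMSO, a log2 ratio of -0.23. Impact had 116 CPM in each library, with a log2 ratio of 0.01 (-0.05 to 0.07) that turned to -0.20 under TMM and -0.24 under median-of-ratios scaling.

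In the order of CPM after Idoxuridine, Mest was followed by Snrpn, Impact and Peg10, then by Sgce, Peg3 and Nnat, whose intervals overlapped, and last by Zrsr1. In DMSO the order was Snrpn, Mest, Impact, then Peg10 and Sgce with overlapping intervals, then Peg3, Nnat and Zrsr1. Snrpn and Mest therefore stood in opposite order in the 2 libraries.

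The distribution over cells was compared after thinning each cell to 23500 UMIs, which left 648 Idoxuridine cells and 764 DMSO cells. Most cells held few or no UMIs of 5 of the members. In a random thinning, Peg3 was at 0 UMIs in 61.9% of Idoxuridine cells and 68.3% of DMSO cells, while its highest cell held 26 UMIs after Idoxuridine and 9 in DMSO. Nnat was at 0 in 56.3% of Idoxuridine cells and 80.5% of DMSO cells, and its highest cell held 21 and 3 UMIs. For Peg3, the 65 Idoxuridine cells with the most UMIs held 60.7% of its UMIs, against 50.9% in the top 77 DMSO cells, so the Idoxuridine count was the more concentrated. For Nnat the top 65 Idoxuridine cells held 51.1% and the top 77 DMSO cells 62.3%. Every cell came from the same cell line, so there were no cells that should lack these genes and the background from free RNA was not measured.

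**Figure D2:**
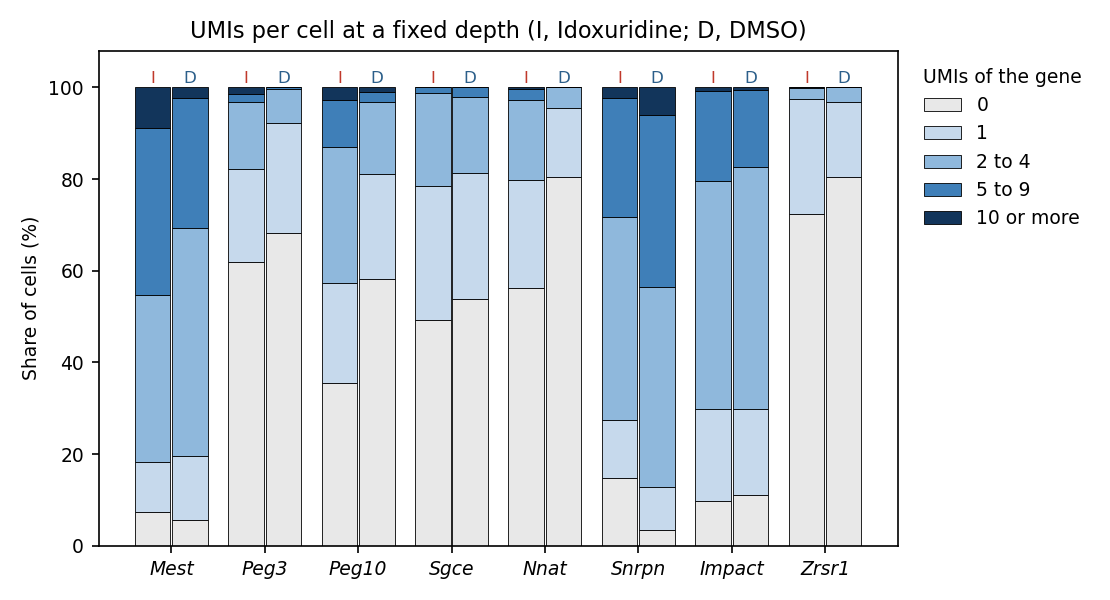
Share of cells (%) by the number of UMIs of each gene after thinning to the fixed depth, with Idoxuridine (I, 648 cells) left of DMSO (D, 764 cells). Cells with 10 or more Mest UMIs make up 8.95% of Idoxuridine cells and 2.36% of DMSO cells, and cells with 0 Snrpn UMIs make up 14.7% and 3.40%.

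Peg10 was at 0 UMIs in 35.5% of Idoxuridine cells and 58.1% of DMSO cells. Its highest cell held 35 UMIs after Idoxuridine and 16 in DMSO, and 2.78% and 0.916% of cells held 10 or more. Sgce was at 0 in 49.2% of Idoxuridine cells and 53.9% of DMSO cells, and its highest cell held 7 and 9 UMIs. Mest was present in most cells, with a median of 4 UMIs in Idoxuridine cells and 3 in DMSO cells, and a highest cell of 58 and 25 UMIs. Impact had a median of 2 UMIs and a highest cell of 12 in both libraries. Zrsr1 was at 0 in 72.4% of Idoxuridine cells and 80.5% of DMSO cells.

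The Fano factor divides a gene's variance across cells by its mean, so that pure counting noise gives 1. It was computed as the exact expectation of thinning for genes with a mean of at least 0.25 UMI per thinned cell in both libraries, which 7 members met; Zrsr1 fell short in DMSO with a mean of 0.237. Mest, Peg3 and Nnat were more variable after Idoxuridine by 1.18 to 1.73 on the log2 scale. At a size of 0.5 log2, 3 of 7 members were called higher in Fano factor, against 2.54% of the 7316 genes measured, and 0 were called lower, against 0.137%. The median Fano factor of those genes was 1.14 after Idoxuridine and 1.08 in DMSO.

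**Figure D3:**
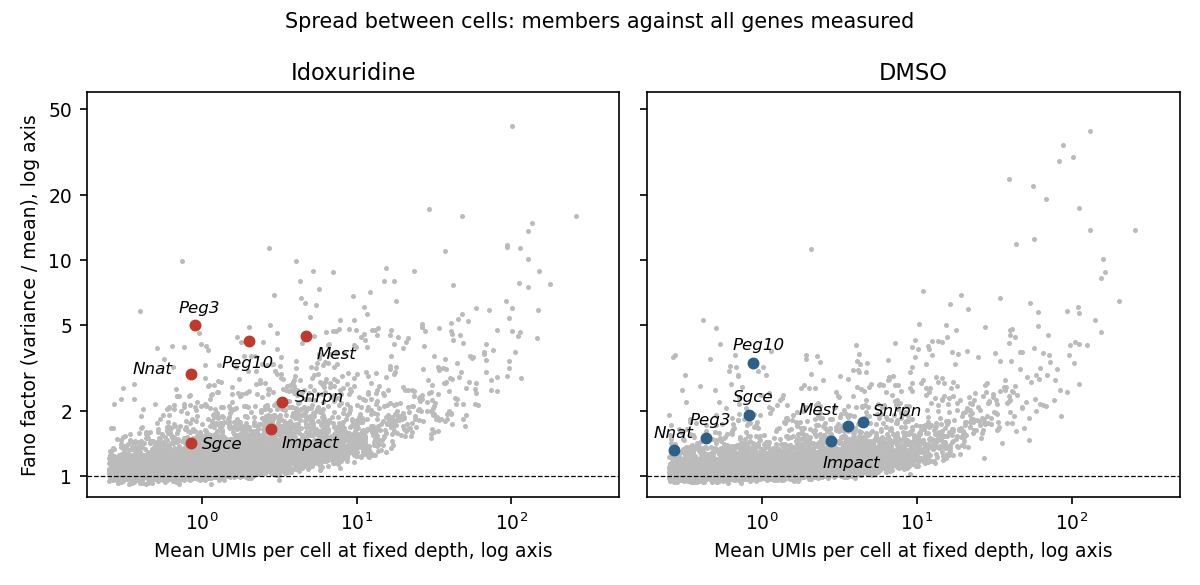
Fano factor against mean UMIs per cell at the fixed depth, both on log axes, for 7316 genes (grey) and the 7 measured imprinted genes (coloured), in Idoxuridine cells on the left and DMSO cells on the right; the dashed line is the counting level of 1. Peg3, Mest, Peg10 and Nnat lie at 2.98 to 5.01 after Idoxuridine, and Peg10 is the highest member in DMSO at 3.36.

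Peg3 had a Fano factor of 5.01 in Idoxuridine cells and 1.51 in DMSO cells. Its log2 ratio of 1.73 was above that of 99.9% of the 7316 genes. Mest had 4.47 in Idoxuridine cells and 1.72 in DMSO cells, a log2 ratio of 1.38. Without the 1% of cells with the most Mest UMIs in each library, the Mest ratio was 0.73. Without the cells holding at least 20 Mest UMIs, which were 6 Idoxuridine cells and 1 DMSO cell, the log2 ratio was 0.59 for Mest and 1.38 for Peg3. Removing cells by their Mest count can by itself lower the Mest ratio. Nnat had 2.98 in Idoxuridine cells and 1.32 in DMSO cells, and its log2 ratio of 1.18 was 1.17 without those cells. Nnat was at a mean of only 0.269 UMI per thinned DMSO cell, close to the limit of measurement.

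Peg10 was variable in both libraries, at 4.25 after Idoxuridine and 3.36 in DMSO. Its log2 ratio of 0.34 turned to -0.11 without the cells rich in Mest. That filter was set after values were seen and removed 6 Idoxuridine cells and 1 DMSO cell. Under the other depths and cell filters the Peg10 ratio was 0.20 to 0.42, the highest without the 1% of cells with the most Peg10 UMIs. Relative to its mean, Peg10 had the opposite order, since the counting-corrected squared coefficient of variation was 1.62 in Idoxuridine cells and 2.69 in DMSO cells. Sgce had a Fano factor of 1.43 in Idoxuridine cells and 1.93 in DMSO cells. Its log2 ratio of -0.43 was at the percentile of 0.164 among the 7316 genes, short of the 0.5 log2 size rule, and was below 0 under every depth and cell filter tried (-0.44 to -0.29). Its corrected squared coefficient of variation was 0.508 in Idoxuridine cells and 1.13 in DMSO cells, so on that measure both genes of the pair were lower after Idoxuridine.

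Snrpn had a Fano factor of 2.21 after Idoxuridine and 1.78 in DMSO, and Impact had 1.66 and 1.46. For Snrpn the libraries also differed in cells without any UMI. In expectation 14.4% of Idoxuridine cells and 3.06% of DMSO cells had no Snrpn UMI, where a Poisson count of the same mean would leave 3.71% and 1.16%. The excess over Poisson was 10.7 percentage points after Idoxuridine and 1.90 in DMSO, and the difference of the excesses ranked 31 among 7316 genes. In the same ranking Peg3 was at 4, Nnat at 14, Peg10 at 106, Mest at 255 and Sgce at 7303. The excess in points also depends on the mean, so the ranks do not compare spread alone. The mean per thinned cell was 0.909 UMI after Idoxuridine and 0.435 in DMSO for Peg3, and 0.846 and 0.269 for Nnat.

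In the random thinning, 95 of 648 Idoxuridine cells and 26 of 764 DMSO cells had no Snrpn UMI. The 95 Idoxuridine cells had a median total of 39035 UMIs before thinning, against 39604 in the other 553 cells. Their median sum over the embryonic stem cell markers was 116 UMIs, against 114 in the other cells, and their mean Snrpb count was 17.8, against 17.4. Their mean Peg10 count was 1.34 UMIs, against 2.13 in the other cells, and their mean Mest count 3.95, against 4.97. In depth and pluripotency markers the Idoxuridine cells without Snrpn stood close to the rest of their library. In DMSO the Peg10 means stood in the opposite order, at 1.42 UMIs in the 26 cells without Snrpn and 0.862 in the other 738 cells. Sgce averaged 1.96 UMIs in those 26 cells, against 0.778, and median Malat1 was 81.5 UMIs, against 49. Among those 26 were cells with 12, 6, 6 and 5 Peg10 UMIs, which held 8, 5, 4 and 6 Sgce UMIs. The Peg10 and Sgce means of the 26 DMSO cells thus rest largely on a few cells. In Idoxuridine cells Sgce averaged 0.747 UMI without Snrpn, against 0.879, and median Malat1 was 91 UMIs, against 86. The part of Malat1 in these differences was not tested.

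Across cells, the pair at the shared promoter region varied together in both libraries. Pearson's r between Peg10 and Sgce UMIs at the fixed depth was 0.234 over 648 Idoxuridine cells and 0.377 over 764 DMSO cells. Corrected for counting noise, the values were 0.486 and 0.648. All cells of a library share its preparation and, after thinning, their depth, and the correlations are given as descriptions. For Sgce, Peg10 had the highest r of all measured genes in each library, first of 7972 after Idoxuridine and first of 7450 in DMSO. For Peg10, Sgce ranked 17 after Idoxuridine and 4 in DMSO. Spearman's correlation of the pair was 0.303 in Idoxuridine cells and 0.306 in DMSO cells, so the gap between the libraries in Pearson's r was not seen in ranks.

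The mean Sgce count went up with the Peg10 count of the cell, over averages of 100 thinnings. After Idoxuridine it was 0.497 UMI in cells with 0 Peg10 UMIs, 0.896 with 1 to 2, 1.16 with 3 to 5 and 1.49 with 6 or more. In DMSO it was 0.538, 0.974, 1.81 and 2.96 UMIs in the same classes. The classes with at most 2 Peg10 UMIs were alike in the libraries, and the classes above differed. The top class held 55.7 Idoxuridine cells and 17.3 DMSO cells on average, so its DMSO value rests on few cells. Without the 1% of cells with the most UMIs of either gene, r was 0.259 after Idoxuridine and 0.318 in DMSO.

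**Figure D4:**
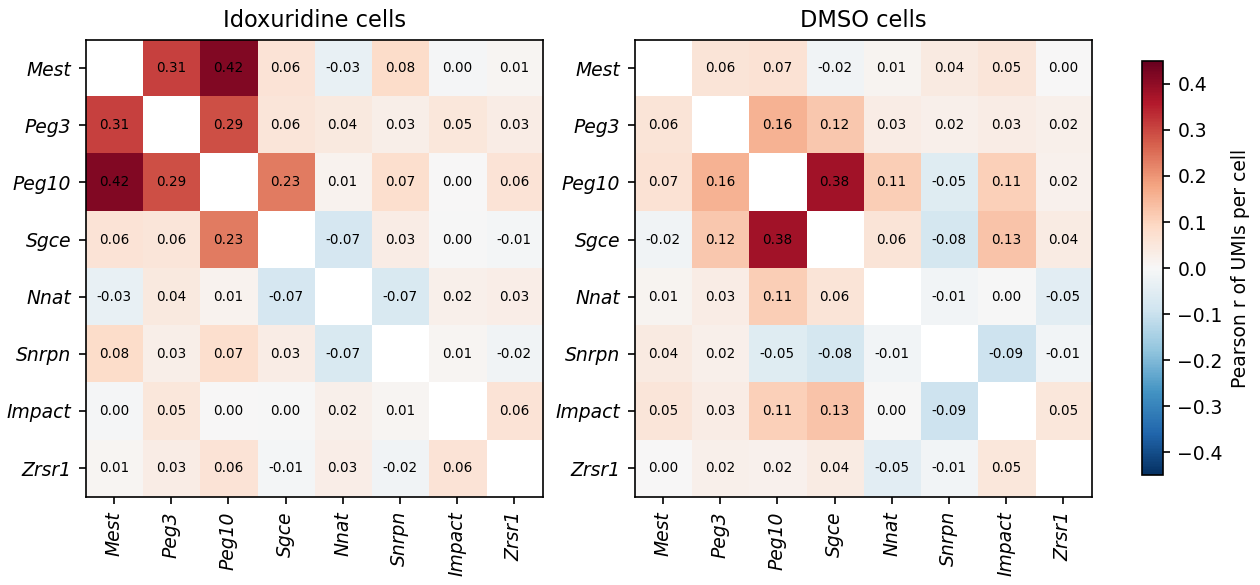
Pearson's r of UMIs per cell at the fixed depth for the 28 pairs of genes, in 648 Idoxuridine cells on the left and 764 DMSO cells on the right. Peg10 with Sgce stands out in both maps (0.234 and 0.377), and the pairs among Mest, Peg3 and Peg10 lie at 0.290 or more in the Idoxuridine map and at 0.155 or less in the DMSO map.

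Of the 28 pairs of members, 4 had r of at least 0.2 in Idoxuridine cells and 1 in DMSO cells, and the median r was 0.03 in both. Of all measured genes, 0.0125% to 0.389% reached 0.2 with Mest, Peg3, Peg10 or Sgce in Idoxuridine cells. In DMSO cells 0.0134% to 0.336% did. By Spearman's correlation 1 pair reached 0.2 in Idoxuridine cells. By Pearson's r the pairs there besides Peg10 and Sgce were those among Mest, Peg3 and Peg10. Mest and Peg10 had r of 0.416 in Idoxuridine cells and 0.066 in DMSO cells. Mest and Peg3 had 0.307 and 0.058, and Peg3 and Peg10 had 0.290 and 0.155. These 3 genes lie at separate loci, Mest and Peg10 far apart on chromosome 6 and Peg3 on chromosome 7. Every pair with Nnat, Snrpn, Impact or Zrsr1 was between -0.09 and 0.13 in both libraries.

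The Mest values rested largely on a few cells. In the random thinning, 6 Idoxuridine cells held at least 20 Mest UMIs (58, 49, 32, 25, 25 and 22), against 1 DMSO cell (25). In the same order the 6 cells held 20, 18, 13, 9, 35 and 6 Peg10 UMIs and 1, 26, 1, 0, 11 and 15 Peg3 UMIs, while the DMSO cell held 0 Peg10 UMIs and 1 Peg3 UMI. All 6 were thus high in Peg10 against a mean of 1.88 in the other 642 Idoxuridine cells, and 3 of them were high in Peg3 against a mean of 0.835. Without these cells r in the Idoxuridine library was 0.145 for Mest and Peg10, 0.134 for Mest and Peg3 and 0.172 for Peg3 and Peg10. Peg10 and Sgce had 0.265, which is not a like comparison, since removing cells by their Mest count can by itself lower r with Mest. Without the 1% of cells with the most UMIs of either gene, Mest and Peg10 had 0.170 and Peg10 and Sgce 0.259.

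In the same order the 6 cells had 23960, 24406, 24431, 27258, 42108 and 46544 UMIs before thinning, against a library median of 37425. None exceeded 2 times that median. The cells with 23960 to 27258 UMIs, which held 58, 49, 32 and 25 Mest UMIs, are left out at a depth of 30000 UMIs. Sgce, Nnat, Snrpn, Impact and Zrsr1 averaged 1.33, 1.00, 4.33, 2.50 and 0.50 UMIs in the 6 cells, against 0.855, 0.899, 3.28, 2.84 and 0.315 in the other Idoxuridine cells. The members besides Mest, Peg10 and Peg3 were thus not raised on a similar scale. Cdkn1c, a maternally expressed inhibitor of the cell cycle, averaged 10.7 UMIs in the 6 cells and 0.461 in the others, and the 6 cells held 17.8% of its UMIs. Pou5f1 averaged 36.7 UMIs in the 6 cells and 37.3 in the others, while Sox2, another pluripotency factor, averaged 1.67 and 4.39. Malat1, a nuclear-retained RNA, averaged 312 UMIs in the 6 cells and 99.7 in the others. Within 3 classes of cells by nuclear-retained share, r of Mest and Peg10 was 0.284 after Idoxuridine and 0.063 in DMSO.

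**Figure D5:**
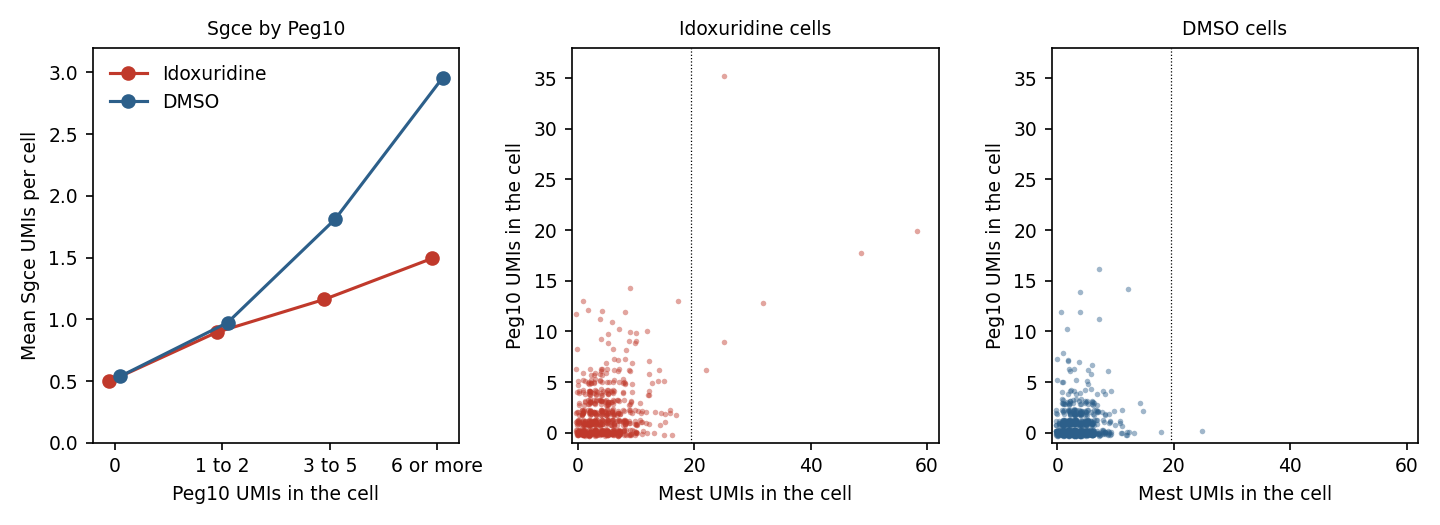
Left, mean Sgce UMIs per cell by class of Peg10 UMIs, averaged over 100 thinnings, in Idoxuridine cells (red) and DMSO cells (blue). Middle and right, Peg10 against Mest UMIs in each of 648 Idoxuridine cells and 764 DMSO cells in a random thinning, with points spread by under 0.5 UMI to show overlaps; the dotted line separates the 6 and 1 cells with at least 20 Mest UMIs.

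Among all genes with a mean of at least 0.25 UMI, the 5 with the highest r to each member were compared over cells. The lists and counts for every member include the cells with at least 20 Mest UMIs and were not recomputed without them. In the Idoxuridine library those 6 cells held 17.8% of the Cdkn1c UMIs and 8.82% of the Gsn UMIs. Mest had r of at least 0.2 with 28 of 7972 genes (0.351%) in Idoxuridine cells and with 1 of 7450 (0.0134%) in DMSO cells. Its closest genes after Idoxuridine were Peg10, the actin-severing protein gene Gsn (0.41), Cdkn1c (0.37), Ptms (0.36) and Brd2 (0.33). In DMSO they were Akr1b3 (0.26), Tmsb4x, Pcolce2, Cd24a and Stmn1 (0.16 each). No gene was in both lists of 5, but the overlap to be expected of such short lists was not computed. Gsn and Cdkn1c could not be listed in DMSO, since they averaged 0.055 and 0.076 UMI in 763 cells there, below the limit.

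Peg10 had r of at least 0.2 with 31 of 7972 genes (0.389%) in Idoxuridine cells and 25 of 7450 (0.336%) in DMSO cells. After Idoxuridine its closest genes were Mest, Cdkn1c (0.39), Ptms (0.32), Ascl2 (0.30) and Peg3 (0.29). Ascl2, a maternally expressed gene, encodes a transcription factor of the placental lineage. In DMSO they were Cdx2 (0.47), Grsf1 (0.42), Sp5 (0.40), Sgce (0.38) and the asparagine synthetase gene Asns (0.33). Cdx2 encodes a transcription factor of trophoblast and posterior mesoderm, and Sp5 is a target of Wnt signalling.

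Peg3 passed 0.2 with 24 of 7972 genes (0.301%) in Idoxuridine cells and 2 of 7450 (0.0268%) in DMSO cells. Its closest genes after Idoxuridine were Khdc1a (0.42), the X-linked homeobox gene Esx1 (0.37), Cdkn1c (0.36), Npl (0.35) and Pkp2 (0.34), and in DMSO they were Cdx2 (0.24), Nefl (0.24), Lef1, Rhob and Sp5 (0.17 each). Cdkn1c was thus among the 5 genes closest to each of Mest, Peg3 and Peg10 after Idoxuridine, at a mean of 0.522 UMI per thinned cell. Its r in DMSO was 0.02 with Mest, 0.07 with Peg3 and 0.10 with Peg10. However, Cdkn1c averaged only 0.076 UMI in the 763 DMSO cells with under 20 Mest UMIs, below the limit of 0.25. It could therefore not enter the DMSO lists, and counting noise limits its r there.

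For Sgce, 1 of 7972 genes (0.0125%) passed 0.2 in Idoxuridine cells, Peg10 itself, and 25 of 7450 (0.336%) passed in DMSO cells. Anxa3 (0.20 after Idoxuridine and 0.27 in DMSO) and Anxa2 (0.17 and 0.26), which encode annexins, were among its 5 closest genes in both libraries, as was Peg10. The others were Lrpap1 and Eef1a1 after Idoxuridine, and Asns (0.30) and Itm2b (0.26) in DMSO. No gene had r above 0.234 with Nnat, Snrpn, Impact or Zrsr1 in either library, where r was computed. The closest were Aqp3 (0.23) to Nnat, Slc25a4 (0.18) to Snrpn, Lamp1 (0.20) to Impact and Sh3d21 (0.15) to Zrsr1 after Idoxuridine. In DMSO they were Bex1 (0.13) to Nnat, Oaz1 (0.23) to Snrpn and Eef2 (0.19) to Impact. Eef1a1, a translation elongation factor gene, was among the 5 closest to Impact in both libraries, at 0.18 and 0.17.

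Peg10 and Peg3, and to a varying degree Sgce, Mest and Impact, were higher in cells with fewer UMIs of the embryonic stem cell markers. The r of that list was -0.25 after Idoxuridine and -0.30 in DMSO with Peg10, and -0.25 and -0.14 with Peg3. It was -0.10 and -0.18 with Sgce, -0.16 and -0.06 with Mest, and -0.04 and -0.12 with Impact. With Snrpn it was -0.02 and 0.02, with Nnat -0.01 and -0.04, and with Zrsr1 0.04 and 0.00. The trophoblast markers had r of 0.19 after Idoxuridine and 0.18 in DMSO with Peg10, 0.14 and 0.05 with Mest, and 0.07 and 0.04 with Peg3. For Peg3 the mesoderm markers had r of 0.19 after Idoxuridine and 0.06 in DMSO, and the germ cell markers 0.17 and 0.02. The germ cell markers had 0.14 and 0.05 with Peg10, and 0.13 and -0.01 with Mest. The nuclear-retained RNAs had r of 0.20 and 0.04 with Peg10, 0.15 and -0.05 with Mest, and 0.11 and 0.12 with Impact. The part of these marker differences in the spread of the members was not tested. For r within called cell cycle phases, phases with under 20 cells were left out. This dropped G1, with 7 Idoxuridine cells and 3 DMSO cells. The 7 included the Mest-rich cells with 49 and 32 Mest UMIs. Within the S and G2/M phases, r of Mest and Peg10 was 0.289 after Idoxuridine and 0.061 in DMSO, and r of Peg10 and Sgce was 0.248 and 0.378.

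Genes beside the members differed in both directions on the CPM scale. Of 27 neighbouring genes found in the table, 12 had at least 200 UMIs, of which 2 were called higher and 2 lower, against 18.8% and 4.2% of all genes. Calls in this list and the lists below were made on the CPM scale only. Higher calls with a ratio near 0.5 log2 would fall short of the rule under TMM scaling. Beside Peg10 and Sgce, Casd1, which encodes a sialic acid acetyltransferase, was at 8.57 CPM after Idoxuridine and 6.00 CPM in DMSO (log2 ratio 0.51), Pon2 was at 23.4 and 16.7 CPM (0.49), and Pon3 at 4.83 and 6.57 CPM (-0.44). Ppp1r9a, at 8.67 and 10.0 CPM, was not called. Beside Mest, Cep41 was at 3.97 CPM after Idoxuridine and 6.49 CPM in DMSO (-0.71) and Copg2 at 37.7 and 42.6 CPM (-0.18). Commd1, which overlaps Zrsr1 on the other strand, was at 74.6 CPM after Idoxuridine and 109 CPM in DMSO (-0.54), so the sign of its ratio was the opposite of that of Zrsr1. Near Snrpn, Ndn, a paternally expressed gene of the MAGE family, was at 9.79 CPM after Idoxuridine and 3.48 CPM in DMSO (1.49). Blcap beside Nnat (0.22), Ctnnbl1 (0.19), Ube3a (0.19) and Osbpl1a beside Impact (0.26) had small ratios, and the first 3 change sign under median-of-ratios scaling.

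Among 22 other paternally expressed genes found in the table, 10 had at least 200 UMIs, 4 of which were called higher and 0 lower, with a median log2 ratio of 0.21. The 4 were Slc38a4 (13.4 CPM after Idoxuridine, 1.96 CPM in DMSO), Fkbp6 (54.3 and 13.1 CPM), Ndn, and Sfmbt2 (86.3 and 54.7 CPM). In Fano factor 0 of the 7 measured genes of this list were called higher, and the largest ratio was that of Fkbp6, at 2.76 after Idoxuridine and 2.21 in DMSO (0.32). Of 26 maternally expressed genes, 15 had at least 200 UMIs, and 6 were called higher and 0 lower, with a median of 0.31. The 4 with the largest ratios were Phlda2 (62.5 CPM after Idoxuridine, 2.16 CPM in DMSO), Ascl2 (16.0 and 1.91 CPM), Cdkn1c (20.3 and 3.06 CPM) and Igf2r (12.5 and 5.51 CPM). Of all 10380 genes, 18.8% were called higher and 4.2% lower. In this list the long non-coding RNA Meg3 was called higher in Fano factor, at 9.23 after Idoxuridine and 4.21 in DMSO.

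Of 17 factors that set or keep imprints, 3 were called higher and 2 lower in level, where 18.8% of all genes were called higher and 4.2% lower. Zfp57, whose product binds the hexamer shown above, was at 110 CPM after Idoxuridine and 162 CPM in DMSO (-0.56), and its Fano factor was 2.08 and 1.39. Dppa3, which protects methylation in the early embryo, was at 98.0 and 4.75 CPM (4.37), the methyltransferase gene Dnmt3a at 31.6 and 11.6 CPM (1.45), Tet3 at 7.88 and 4.83 CPM (0.71) and Tet1 at 116 and 167 CPM (-0.52). Trim28, the partner of ZFP57, was at 544 CPM after Idoxuridine and 602 CPM in DMSO (-0.15). Across cells, r of Zfp57 was -0.10 after Idoxuridine and 0.00 in DMSO with Mest, and -0.10 in both libraries with Peg3.

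Among relatives and partners of the members, 26 of 35 genes had at least 200 UMIs, and 3 were called higher and 0 lower, against 18.8% and 4.2% of all genes. They were Ldoc1 (21.3 CPM after Idoxuridine, 0.441 CPM in DMSO), which stems from the same family of retrotransposons as Peg10, Siah2 (10.5 and 4.43 CPM) and Sgcb (8.93 and 6.30 CPM), which encodes beta-sarcoglycan. Zrsr2, the X-linked relative of Zrsr1, was at 92.4 CPM after Idoxuridine and 104 CPM in DMSO (-0.17). In Fano factor 0 of 21 measured genes of this list were called, and the largest ratio was that of Atf4, a transcription factor gene acting below GCN2, at 2.87 and 3.35 (-0.22).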

How the data were processed

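The authors deposited raw UMI counts, in whole numbers, for each gene in each cell. Libraries were 10x Genomics 3′ V2, per the labels; per the submitters' processing notes, Cell Ranger 2, Seurat and the build mm10 were used. How cell barcodes were chosen is not given in the sources used here. Every barcode was kept and no doublet caller was run; 46 Idoxuridine and 65 DMSO cells exceeded 2 times the median UMIs. With 1 library per treatment, grouped by treatment label, no test was made.

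UMIs were summed per library and scaled to CPM, with exact Poisson intervals and exact conditional binomial intervals of ratios (95%). For spread and correlation, cells were thinned to 23500 UMIs, the largest multiple of 500 under the pooled percentile of 10, leaving out 94 Idoxuridine (12.7%) and 47 DMSO cells (5.80%), with the exact expectation. Distributions used 1 seeded thinning. Phases were called with scanpy 1.11.5. TMM factors came from edgeR 4.0.16. Annotation was GENCODE M21 on GRCm38, which held 27645 gene identifiers (98.7%). Scripts were tested on simulated data. In alternatives, scaling, depth, cell filters and thresholds were changed.

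The members and gene lists were chosen with earlier results of these data known. Named were all members, their 5 closest genes, locus neighbours, and in each other list up to 4 genes by level ratio among those called and up to 4 by Fano ratio, of which those the text turns on are printed. The Mest-rich cells and 3 classes of nuclear-retained share were chosen after values were seen.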

Additional observations from a re-analysis of the deposited data

How the results depend on the processing

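No paired analysis was possible because each treatment had 1 library; for the same reason no replicate could be left out. No called member changed direction under any alternative; values near 0 that turned are in the report. The count of members called lower in level was 1 (Snrpn) under TMM and median-of-ratios scaling, against 0; these scalings gave 1259 genes higher and 1262 lower, and 1146 and 1551, against 1947 and 436 on the CPM scale. Of all calls, 49.9% and 42.5% were then higher, against 81.7%. The count called higher in Fano factor was 6 without thinning and 5 at 0.25 log2, where 1 was called lower. Shares over all genes were not computed for the alternative Fano settings, so these counts have no background beside them. At 15000 UMIs, and without the 1% of cells with the most UMIs of the gene, the count called higher was 2, since Nnat was no longer measured. Without that 1%, r in Idoxuridine cells was 0.170 for Mest and Peg10, 0.109 for Mest and Peg3 and 0.173 for Peg3 and Peg10, and 1 pair reached 0.2. Without the Mest-rich cells these were 0.145, 0.134 and 0.172, with 1 pair. Spearman's values were 0.158, 0.163 and 0.185, with 1 pair. On log2(UMIs + 1), Mest and Peg10 had 0.205 and Mest and Peg3 had 0.195. Within the S and G2/M phases, without the 7 Idoxuridine cells in G1, they had 0.289 and 0.176. Within 3 classes of nuclear-retained share Mest and Peg10 had 0.284. At 30000 UMIs, which leaves out the Mest-rich cells with 23960 to 27258 UMIs, Mest and Peg10 had 0.217. The log2 Fano ratio of Mest was 0.54 at that depth. At 15000 UMIs Peg10 and Sgce had 0.193 in Idoxuridine cells, under 0.2, which left 3 pairs there, and 0.268 in DMSO cells. Without thinning, 2 DMSO pairs reached 0.2. The cause of these shifts was not tested. The depth limits Zrsr1 and Nnat most, with 411 and 1109 UMIs after Idoxuridine and 406 and 505 in DMSO.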
